A study of Mus musculus with 6 samples.

Results

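The neuronal nicotinic acetylcholine receptor subunit genes were examined in RNA-seq counts from whole brain of male C57BL/6NCrSlc mice. They were found by matching the Ensembl identifiers of the count files to gene symbols in the GENCODE M21 annotation, which gave 9 genes of the 60354 features listed for each mouse: Chrna2, Chrna3, Chrna4, Chrna5, Chrna6, Chrna7, Chrnb2, Chrnb3 and Chrnb4. The matching rule itself reads no count, and all 9 passed the filter on low counts, among 18580 features tested. The diets were both based on modified AIN-93M. That of the PLDP mice held PLDP, a protease digest of porcine liver proteins, at 20%, and that of the control mice had its total calories adjusted toward those of the PLDP diet. Feeding began at 16 weeks of age and lasted 16 weeks, all mice then went through behavioral tests during which PLDP was not given, and the brains were taken after those tests. Of 13 mice fed each diet, 3 control mice (numbers 2, 5 and 10) and 3 PLDP mice (numbers 17, 22 and 26) were sequenced.

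Nicotinic receptors are ligand-gated pentameric cation channels, and they open when acetylcholine or nicotine binds between neighboring subunits. Most brain receptors combine alpha with beta subunits, of which the alpha4 beta2 form is the most widespread, whereas alpha7 can form a channel on its own. The alpha3, alpha5 and beta4 subunits are known from the medial habenula and its targets and from peripheral ganglia, and alpha6 and beta3 from midbrain dopamine neurons.

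Totals were between 18797061 and 23938729 counts per mouse. All 15 pairs of mice differed by more than counting noise (chi-square per degree of freedom between 2.36 and 5.33), so each mouse was counted as a separate sample. PLDP mouse 17 stood farthest from the others, with values of 4.48 to 5.33 in every pair that held it. Neuronal transcripts marked the tissue as labeled, with Snap25 between 1832 and 1917 CPM and Rbfox3 between 313 and 323 CPM. CPM is a gene's count per 1000000 counts of that mouse in the features tested, scaled between mice by the TMM method.

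Chrnb2 and Chrna4 were the most abundant of the 9 subunits in every mouse. Levels were compared between genes as RPKM, here the CPM divided by the length of the union of a gene's annotated exons in kilobases. Chrnb2, the main beta subunit of the brain, was at 9.92 ± 0.268 RPKM (SD, n = 6 mice of both diets), and Chrna4, its usual alpha partner, at 8.21 ± 0.495 RPKM. Chrna7 followed at 1.40 ± 0.228 RPKM. Each of these was above the next in all 6 mice, and their ranges did not touch.

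The other 6 subunits formed a low group without gaps. Chrna6 averaged 0.665 ± 0.128 RPKM, Chrnb4 0.593 ± 0.127 RPKM and Chrna3 0.570 ± 0.106 RPKM. Below them were Chrna5 at 0.459 ± 0.0694 RPKM, Chrna2 at 0.320 ± 0.086 RPKM and Chrnb3 at 0.281 ± 0.0884 RPKM. The range of each overlapped that of the next, and the higher gene of each neighboring pair was higher in only 3 to 5 of the 6 mice, so the order of neighbors was not resolved. Genes farther apart could be ordered, since the lowest Chrna6 value, 0.530 RPKM, was above the highest of Chrna2, 0.421 RPKM, and of Chrnb3, 0.386 RPKM. The highest and lowest subunit differed 35.3-fold in RPKM. With the length of the longest coding transcript in place of the exon union, the first 3 kept their order, Chrna7 was at 3.03 RPKM, and Chrna3 moved from place 6 to place 4.

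**Figure D1:**
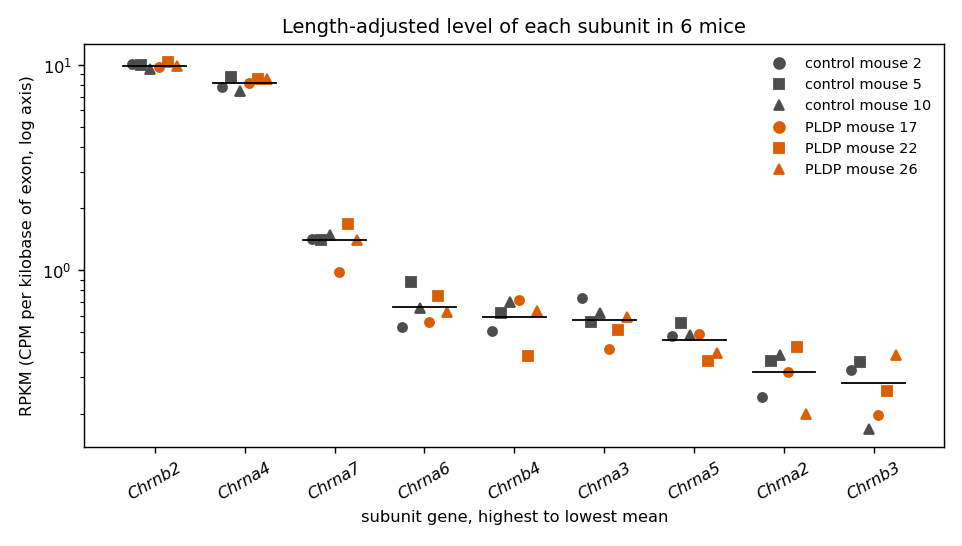
RPKM (log axis) of the 9 subunit genes in 3 control mice (gray) and 3 PLDP mice (orange), ordered by the mean of all 6 mice, which the lines mark. Chrnb2 and Chrna4 lie between 7.47 and 10.3 RPKM, Chrna7 between 0.980 and 1.68 RPKM, and the remaining 6 overlap with their neighbors at or under 0.874 RPKM.

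Together Chrnb2 and Chrna4 made up most of the summed subunit RPKM under both diets. Their share of the sum was 80.9%, 79.8% and 79.1% in control mice 2, 5 and 10, and 83.0%, 81.2% and 81.3% in PLDP mice 17, 22 and 26. The 3 PLDP values lay above the 3 control values, with means of 81.8% ± 1.03 and 79.9% ± 0.892 (SD, n = 3 each), and this share was given no test. The sum itself was 22.4 ± 0.97 RPKM in control mice and 22.5 ± 0.78 RPKM in PLDP mice, with overlapping ranges.

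The alpha subunits are defined by a pair of adjacent cysteines next to the acetylcholine binding site, which the beta subunits lack. In the coding sequences of the annotated transcripts, 2 adjacent cysteine codons in frame occurred once in each of the 6 alpha genes and in none of the 3 beta genes. The 48 bases around that pair are shown because they carry this difference between the classes. They are taken from GENCODE M21 transcripts, with GRCm38 positions, 5′ to 3′ on the strand of the gene, each within a single coding exon, and the capitals mark the cysteine codons.

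Chrna2, chr14:66149055-66149102, plus strand: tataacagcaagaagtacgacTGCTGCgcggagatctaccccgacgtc
Chrna3, chr9:55015833-55015880, minus strand: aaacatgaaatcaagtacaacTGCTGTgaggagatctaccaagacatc
Chrna4, chr2:181029257-181029304, minus strand: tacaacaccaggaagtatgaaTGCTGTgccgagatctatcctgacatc
Chrna5, chr9:55004596-55004643, plus strand: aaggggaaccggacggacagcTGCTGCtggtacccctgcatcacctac
Chrna6, chr8:27407158-27407205, minus strand: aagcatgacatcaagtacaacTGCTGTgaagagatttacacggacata
Chrna7, chr7:63106137-63106184, minus strand: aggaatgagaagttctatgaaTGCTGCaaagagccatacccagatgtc

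The codon that lies 2 codons before the pair is tac or tat, which code for tyrosine, in 5 of the 6 alpha genes, and gac, which codes for aspartate, in Chrna5. Chrna5 is known as an accessory alpha subunit that does not itself form the main face of a binding site. Over whole coding sequences the closest pair was Chrna2 and Chrna4, identical at 77.9% of 1518 aligned bases, followed by Chrnb2 and Chrnb4 at 73.3% of 1436. The least alike pair was Chrna6 and Chrna7 at 58.1% of 1430.

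The longest run of identical bases in the coding sequences of any pair is shown beside the read length because it is the longest stretch of coding sequence in which 2 subunits could not be told apart. It joined Chrna2, at coding positions 910 to 956, with Chrna4, at 919 to 965, and was 47 bases long against reads of 150 bases.

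Chrna2 and Chrna4, shared run: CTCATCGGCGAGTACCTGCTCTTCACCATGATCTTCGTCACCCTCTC

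Of all stretches of 50 bases in the exons, Chrna2, Chrna4, Chrna5, Chrna6 and Chrna7 shared none with the exons of any other gene. Chrna3, Chrnb3 and Chrnb4 shared 0.825%, 0.236% and 1.09% of theirs, with 532, 447 and 481 other genes in the same order. Among these were 2 stretches that Chrna3 and Chrnb3 shared with each other. Chrnb2 shared 14.2%, all with Adar, which encodes an RNA-editing enzyme and lies on the opposite strand. The exons of both genes overlap over 1365 bases, or 16.3% of the exon bases of Chrnb2, and Adar had 3348 to 4309 counts per mouse. The libraries were made with a stranded kit, but whether counting used strand is not given in the sources used here, so Chrnb2 values are uncertain to that extent.

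None of the 9 subunits differed between the diets beyond the spread between mice. By the quasi-likelihood test of edgeR, 0 of 9 had an unadjusted p under 0.05, whereas 8.6% of all features tested did (4.91% higher and 3.69% lower in PLDP mice). At an adjusted p under 0.05 the count was also 0, with 0.0323% of all features called, and an unadjusted p under 0.05 was likewise found for 0 subunits with DESeq2 (4.98% of all features), with the exact test of edgeR (8.32%) and with limma voom (8.67%). In 0 of 9 did the CPM ranges of the diets separate, against 14.2% of all features. The estimates were below 0 for 7 subunits and above 0 for 2, with a median log2 fold change (PLDP minus control) of -0.08, while the median of all features was -0.0006. In tissue from whole brain, fewer cells of a type and less RNA per cell cannot be told apart, and single nuclei were not measured.

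**Figure D2:**
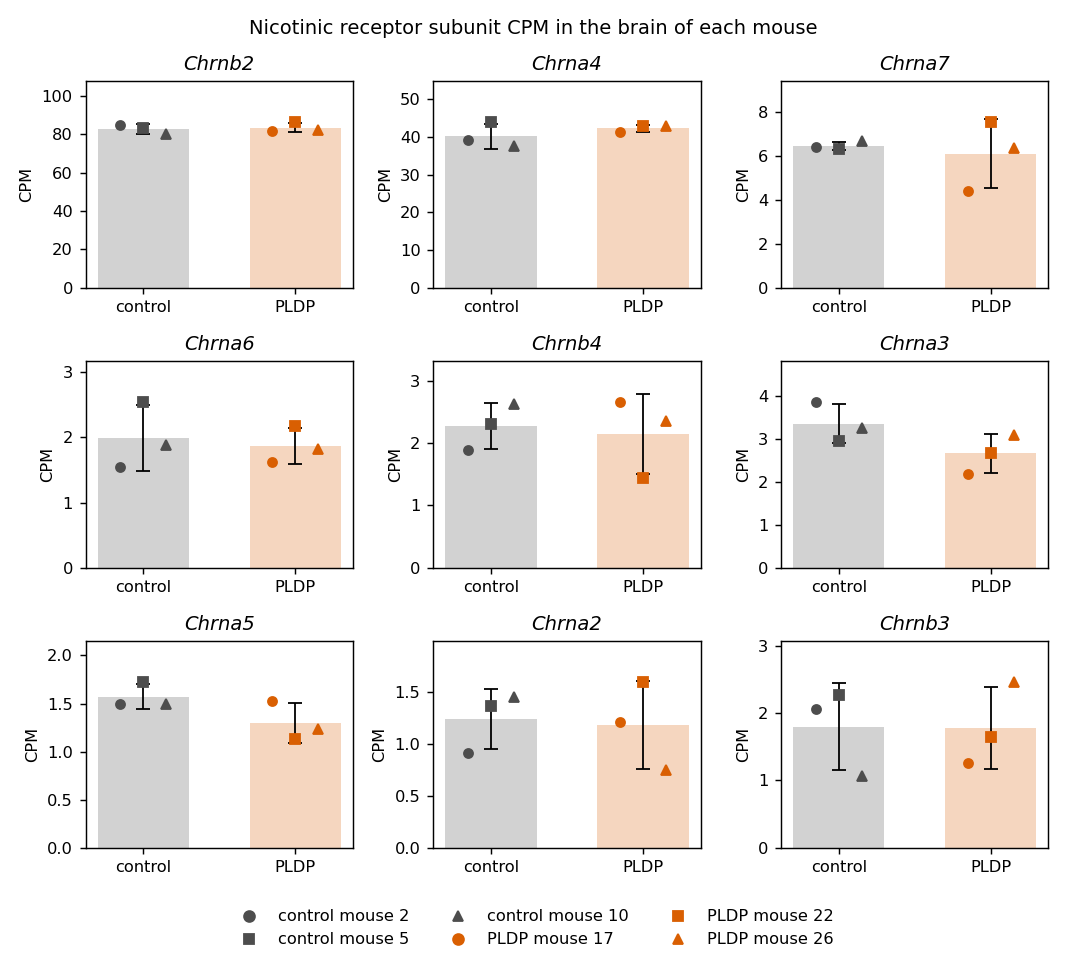
CPM of each subunit in the 6 mice, on axes that start at 0 and differ between panels. Bars give the mean and error bars the SD of 3 mice per diet, and points the single mice. The diets overlap in all 9 panels, and the 3 PLDP values of Chrna7 spread from 4.42 to 7.55 CPM while its control values lie between 6.35 and 6.69 CPM.

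Chrnb2 (chr3:89746195-89764632, minus strand) was measured most precisely. It had 84.9, 83.3 and 80.1 CPM in control mice 2, 5 and 10 and 81.7, 86.3 and 82.4 CPM in PLDP mice 17, 22 and 26, from 1541 to 2059 counts per mouse. The diets overlapped throughout, and the mice varied by 2.71% around their mean, close to the 2.38% that counting alone gives. Its log2 fold change was 0.01 ± 0.05 (SE; adjusted p = 0.966, edgeR), and the 95% confidence interval of the fold change ran from 0.942 to 1.08.

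Chrna4 (chr2:181018380-181043546, minus strand) encodes the alpha subunit that pairs with beta2. Control mice 2, 5 and 10 had 39.1, 43.9 and 37.5 CPM, and PLDP mice 17, 22 and 26 had 41.2, 42.8 and 42.9 CPM. Control mouse 5 was the highest of the 6, and the other 2 control mice were lower than every PLDP mouse. The log2 fold change was 0.07 ± 0.06 (SE; adjusted p = 0.790, edgeR), with an interval of 0.960 to 1.15 for the fold change. Without control mouse 5 it was 0.14 and passed the unadjusted threshold (adjusted p = 0.754, edgeR), where 6.49% of all features did. Leaving out any other single mouse gave no call for Chrna4.

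Chrna7 (chr7:63098692-63212569, minus strand) encodes the subunit of the homomeric alpha7 receptor, which has high calcium permeability. It was at 6.40, 6.35 and 6.69 CPM in control mice 2, 5 and 10 and at 4.42, 7.55 and 6.36 CPM in PLDP mice 17, 22 and 26. The PLDP mice included both the lowest and the highest value and enclosed the control mice. Their coefficient of variation was 25.9%, against 2.86% in control mice and 8.63% from counting alone, a difference in spread that was not tested. The log2 fold change was -0.08 ± 0.16 (SE; adjusted p = 0.934, edgeR) with a fold interval of 0.753 to 1.19, and it turned to 0.11 (adjusted p = 0.795) without PLDP mouse 17.

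Chrna5, Chrna3 and Chrnb4 lie next to each other on chromosome 9, and their products assemble in the receptors of the medial habenula. Chrna5 (chr9:54980880-55007779, plus strand) is separated by 2331 bases from Chrna3 (chr9:55010111-55026562, minus strand), which is separated by 1591 bases from Chrnb4 (chr9:55028154-55048779, minus strand).

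Of the 9 subunits, Chrna3 had the largest estimate. Its CPM was 3.85, 2.95 and 3.25 in control mice 2, 5 and 10 and 2.19, 2.68 and 3.10 in PLDP mice 17, 22 and 26. PLDP mice 17 and 22 were below every control mouse, while PLDP mouse 26 lay between control mice 5 and 10. This gave a log2 fold change of -0.34 ± 0.18 (SE; adjusted p = 0.631, edgeR), and the fold interval of 0.607 to 1.03 included no change. It passed the unadjusted threshold when control mouse 5 (log2 fold change -0.42, adjusted p = 0.764) or PLDP mouse 26 (-0.45, adjusted p = 0.660) was left out.

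Chrna5 had only 23 to 38 counts per mouse. It was at 1.49, 1.72 and 1.50 CPM in control mice 2, 5 and 10 and at 1.53, 1.13 and 1.23 CPM in PLDP mice 17, 22 and 26. PLDP mouse 17 was above control mice 2 and 10, and the other PLDP mice were below all controls. An estimate of -0.28 ± 0.23 (SE; adjusted p = 0.786, edgeR) was obtained for the log2 fold change, with a fold interval of 0.587 to 1.16.

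Chrnb4, the beta subunit of the same cluster, varied more in PLDP mice (29.8% around the mean) than in control mice (16.5%), a difference that was not tested. Its values were 1.88, 2.31 and 2.62 CPM in control mice 2, 5 and 10 and 2.65, 1.43 and 2.35 CPM in PLDP mice 17, 22 and 26. The highest and the lowest value both came from PLDP mice. For Chrnb4 the log2 fold change was -0.10 ± 0.23 (SE; adjusted p = 0.947, edgeR) with a fold interval of 0.666 to 1.31. It turned to 0.14 without PLDP mouse 22 and to 0.01 without control mouse 10. With all 6 mice the 3 neighbors shared a negative estimate but no call.

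Markers of the medial habenula were near the same summed level under both diets. Their 7 genes summed to 85.7 to 95.7 CPM in control mice and 87.0 to 88.0 CPM in PLDP mice, led by Lrrc55, Nwd2 and Kctd8, and 1 of the 7 was called, where 8.6% of all features were. That gene was Pou4f1, a transcription factor of habenular neurons, singled out here after its values were seen. Its CPM was 4.09, 3.58 and 3.83 in control mice 2, 5 and 10 and 3.16, 2.35 and 2.24 in PLDP mice 17, 22 and 26, without overlap, as for 14.2% of all features (log2 fold change -0.56 ± 0.17 (SE), adjusted p = 0.326, edgeR). Its part in the estimates of Chrna3, Chrna5 and Chrnb4 was not tested.

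Chrna6 and Chrnb3 also lie side by side, on chromosome 8, with 3481 bases between Chrnb3 (chr8:27368711-27399730, plus strand) and Chrna6 (chr8:27403212-27413944, minus strand). Their products are partners in receptors on dopamine axon terminals. Chrna6 was at 1.54, 2.54 and 1.89 CPM in control mice 2, 5 and 10 and at 1.63, 2.18 and 1.82 CPM in PLDP mice 17, 22 and 26. All PLDP values lay within the control range (log2 fold change -0.08 ± 0.22 (SE), fold interval 0.679 to 1.31, adjusted p = 0.954, edgeR).

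Chrnb3 was the most variable subunit relative to its mean, at 31.4% over the 6 mice, where counting alone gives 16.3%. It was at 2.07, 2.27 and 1.07 CPM in control mice 2, 5 and 10 and at 1.26, 1.64 and 2.46 CPM in PLDP mice 17, 22 and 26. Control mouse 10 was the lowest and PLDP mouse 26 the highest, and the diets overlapped. Between the diets the log2 fold change was -0.04 ± 0.28 (SE; adjusted p = 0.984, edgeR), with a fold interval of 0.641 to 1.48. Of 7 tested markers of midbrain dopamine neurons, which were led by Aldh1a1, Ret and Th, 0 were called by edgeR, where 8.6% of all features were, and the 8 markers listed summed to 194.0 to 211.0 CPM in control mice and 193.0 to 205.0 CPM in PLDP mice.

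Chrna2 (chr14:66135039-66152948, plus strand), an alpha subunit found in scattered interneurons, had the fewest counts, 14 to 38 per mouse. Control mice 2, 5 and 10 had 0.914, 1.36 and 1.45 CPM, and PLDP mice 17, 22 and 26 had 1.21, 1.59 and 0.748 CPM. The lowest and the highest value were both from PLDP mice. The log2 fold change was -0.04 ± 0.29 (SE; adjusted p = 0.982, edgeR), and the fold interval of 0.633 to 1.49 was the widest of the 9.

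**Figure D3:**
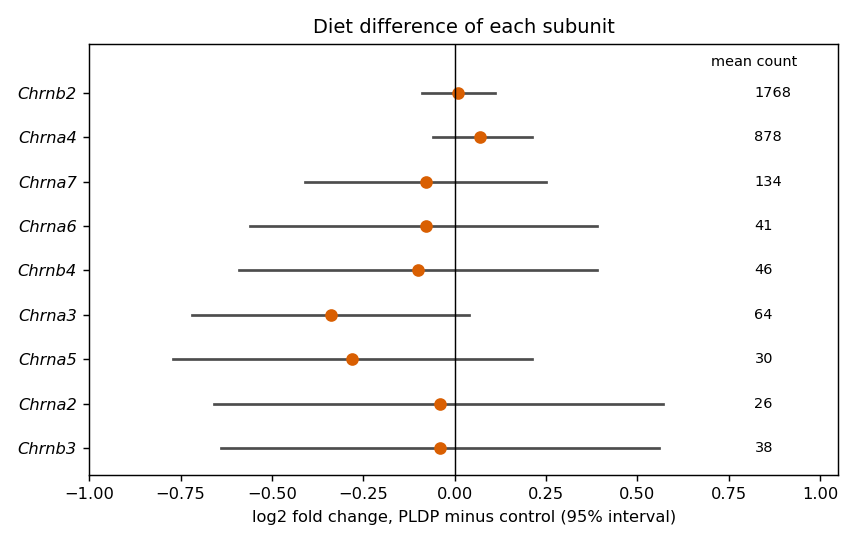
Log2 fold change (PLDP minus control, horizontal axis) of each subunit as a point with its 95% confidence interval as a line, 3 mice per diet, with the mean count per mouse at the right. Every interval includes 0, with the widest interval for Chrna2, at a mean of 26.2 counts, and the narrowest for Chrnb2, at 1768.5 counts.

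Ratios between subunits, most of them pairs that can share a receptor, were compared within each mouse, since they do not depend on the scaling of the library. Of 6 ratios of RPKM, 1 separated the diets, that of Chrna5 to Chrna4, which asks about the accessory subunit relative to the main alpha subunit. It was 0.0613, 0.0631 and 0.0643 in control mice 2, 5 and 10 and 0.0598, 0.0425 and 0.0460 in PLDP mice 17, 22 and 26. Each PLDP value was under the lowest control value, that of PLDP mouse 17 by a narrow margin. The mean log2 ratio was -3.99 ± 0.03 in control and -4.35 ± 0.26 in PLDP mice (SD, n = 3 each), a difference of -0.36, and the exact permutation test, 2-sided, gave p = 0.1, the smallest it can give with 3 against 3 mice (0.6 after adjustment over the 6 ratios). With these numbers no separation can reach 0.05 in this test, and Chrna5 enters the ratio with few counts.

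The ratio of Chrna4 to Chrnb2 was the steadiest, between 0.768 and 0.879 over the 6 mice, with 0.827 and 0.870 in PLDP mice 22 and 26 (log2 difference 0.07, exact permutation p = 0.4). Chrna7 to Chrna4 ran from 0.119 to 0.199, with a log2 difference of -0.20 (exact permutation p = 0.6) that was 0.00 without PLDP mouse 17. Within the chromosome 9 cluster, Chrna3 to Chrnb4 ran from 0.583 to 1.45 and Chrna5 to Chrna3 from 0.653 to 1.18, and within the chromosome 8 pair, Chrna6 to Chrnb3 ran from 1.62 to 3.89. The diets overlapped in these 5 ratios, and the exact permutation p was between 0.4 and 0.9.

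**Figure D4:**
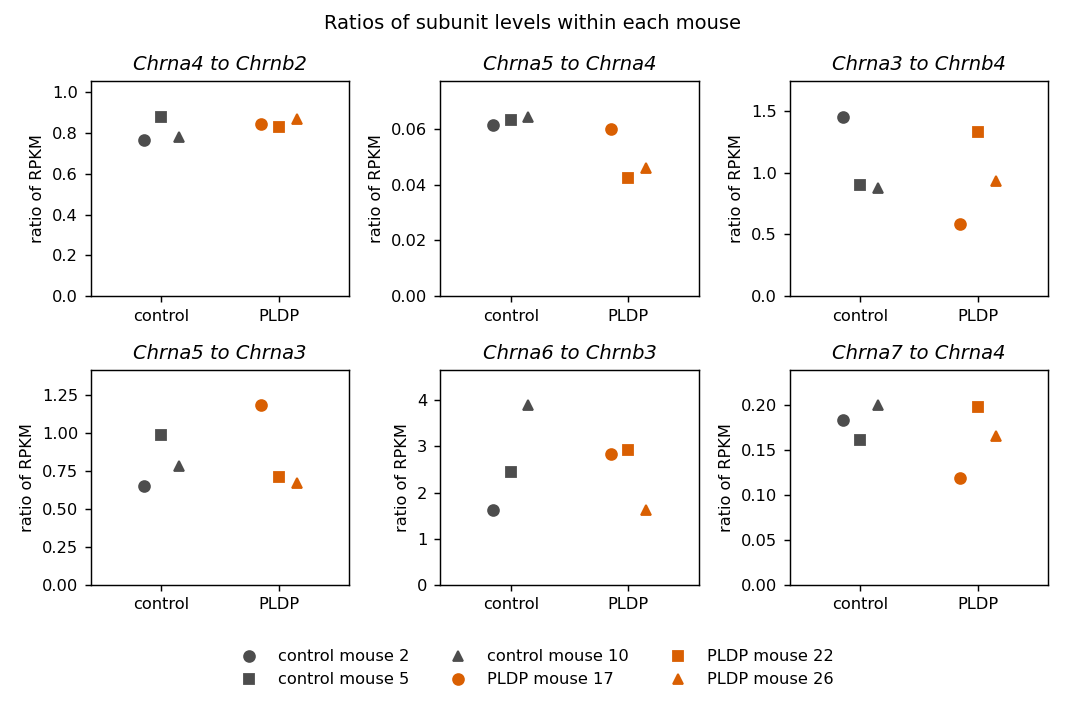
Ratio of RPKM (vertical axis, from 0) between pairs of subunits within each of 3 control (gray) and 3 PLDP (orange) mice. Only for Chrna5 to Chrna4 do the diets not overlap, with 0.0613 as the lowest control and 0.0598 as the highest PLDP value.

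Genes that assemble, modulate or feed these receptors were read from the same fit. Of 11 genes for receptor assembly and trafficking, 3 had estimates above and 8 below 0, and 1 was called, a share close to the 8.6% of all features. It was Ubxn2a, which encodes a protein that regulates the turnover of alpha3 receptors, with 114.0, 114.0 and 109.0 CPM in control mice 2, 5 and 10 and 102.0, 105.0 and 110.0 CPM in PLDP mice 17, 22 and 26. PLDP mouse 26 overlapped the control range. The log2 fold change was -0.10 ± 0.05 (SE; adjusted p = 0.579, edgeR), and the call was lost under 7 of 14 alternatives, in which the estimate stayed between -0.10 and -0.07. These were DESeq2 and the exact test of edgeR (both -0.10), upper-quartile scaling, and leaving out control mouse 2, control mouse 5, PLDP mouse 17 or PLDP mouse 22.

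Of 10 Ly6 family genes, whose products are small extracellular modulators of nicotinic receptors, 7 were tested and 0 were called by edgeR, against 8.6% of all features. Lypd1, which can reduce receptor function, had the smallest p with 83.6, 72.9 and 80.6 CPM in control mice 2, 5 and 10 and 90.6, 80.5 and 84.2 CPM in PLDP mice 17, 22 and 26. The diets overlapped (log2 fold change 0.11 ± 0.06 (SE), adjusted p = 0.633, edgeR). Lypd6 followed with a log2 fold change of -0.13 ± 0.08 (SE; adjusted p = 0.642, edgeR). Lypd1 passed the unadjusted threshold without a filter on low counts and without control mouse 2 or PLDP mouse 22, and Lypd6 without PLDP mouse 26.

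Genes for acetylcholine synthesis, transport and breakdown showed 2 calls among 7 tested of 8 listed, where 8.6% of all features were called. Both were lower in PLDP mice, where 3.69% of all features were called lower. Slc5a7, the choline transporter that supplies acetylcholine synthesis, had 11.3, 10.7 and 11.7 CPM in control mice 2, 5 and 10 and 6.79, 6.67 and 8.98 CPM in PLDP mice 17, 22 and 26. The diets did not overlap, as for 14.2% of all features, and the log2 fold change was -0.60 ± 0.12 (SE; adjusted p = 0.0785, edgeR). Slc5a7 passed the unadjusted threshold under all 14 alternatives, with estimates from -0.74 to -0.52 and adjusted p from 0.000134 to 0.34, under 0.05 in 4 of them (no filter, the exact test of edgeR, and without PLDP mouse 17 or 26). Prima1, which anchors acetylcholinesterase in the membrane, had 15.7, 20.2 and 15.4 CPM in control mice 2, 5 and 10 and 14.6, 14.0 and 15.3 CPM in PLDP mice 17, 22 and 26. Its ranges were separated by a narrow margin, as for 14.2% of all features, with control mouse 5 far above the rest (log2 fold change -0.23 ± 0.10 (SE), adjusted p = 0.539, edgeR). Without that mouse the log2 fold change was -0.09 (adjusted p = 0.923, edgeR). The call of Prima1 was also lost with DESeq2 (log2 fold change -0.23) and without PLDP mouse 17 (-0.23) or 22 (-0.20), at a fold close to that of all 6 mice.

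Some markers of brainstem motor neurons, which are cholinergic, were also lower in PLDP mice. Of 6 listed, led by Prph, Isl1 and Calca, 4 were tested and 3 were called lower, against 3.69% of all features (8.6% either way). They included Prph and Calca, with log2 fold changes of -0.55 and -0.51 (adjusted p = 0.444 and 0.566, edgeR), and Isl1 had -0.07 (adjusted p = 0.951). The summed level was 12.6 to 16.3 CPM in control and 8.72 to 12.8 CPM in PLDP mice, with overlap. Mnx1, which defines spinal motor neurons, was at most 0.139 CPM. Other marker lists also held lower calls, 2 of 4 for choroid plexus (summed level 729.0 to 785.0 CPM in control and 572.0 to 725.0 CPM in PLDP mice), 2 of 4 for oligodendrocytes (4455 to 4775 and 4111 to 4682 CPM), 1 of 4 for astrocytes (992.0 to 1050.0 and 981.0 to 1005.0 CPM) and 1 of 4 for microglia (163.0 to 172.0 and 157.0 to 164.0 CPM). Of 5 markers of forebrain projection neurons, 1 was called higher, where 4.91% of all features were, and their summed level was 2553 to 2589 CPM in control and 2703 to 2782 CPM in PLDP mice, without overlap. The part of these cell types in the result was not tested. Chat, the acetylcholine-synthesizing enzyme, had 4.12 to 5.58 CPM with overlapping diets (log2 fold change 0.03 ± 0.14 (SE), adjusted p = 0.970, edgeR).

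Of the 7 nicotinic subunits of muscle and of sensory hair cells, 2 were tested. Chrna10, a hair cell subunit, had 22 to 35 counts per mouse, about as many as Chrna5. Its control values were 1.59, 1.54 and 1.55 CPM in mice 2, 5 and 10. All were above the PLDP values of 1.21, 1.47 and 1.18 CPM in mice 17, 22 and 26. The diets did not overlap for 14.2% of all features either, and the test did not call Chrna10 (log2 fold change -0.27 ± 0.23 (SE), adjusted p = 0.786, edgeR). Chrnb1, the muscle beta subunit, had 7 to 14 counts, with overlapping diets and a log2 fold change of 0.43 ± 0.37 (SE; adjusted p = 0.788, edgeR).

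Of the remaining subunits of these groups, Chrna1 had 6 to 9 counts, Chrne 0 to 7 counts and Chrna9 0 or 1 count per mouse, and none of them was tested. Chrnd and Chrng had no count in any mouse. This allows up to 3 counts, or 0.125 to 0.160 per 1000000 total counts by mouse, for counting error only.

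The genes whose log2 CPM followed each subunit most closely over the 6 mice were taken from 13405 features with a mean of at least 1 CPM, as Pearson's r. With 6 points and this many features, high values arise in number, and 56 to 288 features per subunit reached an r of 0.9, so the names are a description. For Chrnb2 they included Crmp1 and Abcd3 (r of 0.9747 and 0.9732), and for Chrna4 they were Plbd2, Miat and Slu7 (0.9942 to 0.9996). Chrna7 was followed by Erbb4, Zfp318 and Casp2 (0.9909 to 0.9946).

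For Chrna3 they were Lmbrd1, Amotl2 and Tgif1 (0.9814 to 0.9838), for Chrna5 Sdf4, Calu and Snrpert (0.9964 to 0.9988) and for Chrnb4 Mmgt2, Amt and Mrpl33 (0.9800 to 0.9901). For Chrna6 they were Hspd1, Tnfrsf1a and Rad18 (0.9755 to 0.9795), and for Chrnb3 Selenot, Pex5l and Lurap1l (0.9882 to 0.9902). Chrna2 was followed by Arxes1, Pola2 and Lpin3 (0.9705 to 0.9926). No subunit was among the 3 closest genes of another, also for the neighbors on chromosomes 8 and 9.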

How the data were processed

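For each mouse the authors deposited whole-number counts per gene, not normalized, from a stranded library of polyadenylated RNA sequenced with paired reads of 150 bases. The submitters' processing notes name cutadapt 2.9, HISAT2 2.2.0, featureCounts, DESeq2 1.6.3 and the builds GRCm38 and GRCh38, without roles; whether strand was used is not given in the sources used here. Diet was taken from the labels of each mouse, and p-values set the diet difference against the spread between these mice. In the edgeR test that spread was estimated with information from all features tested. No column of per-sample values was left out.

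The main test was the quasi-likelihood F test of edgeR 4.0.16 in R 4.3.3 (glmQLFit, glmQLFTest), fitted by diet alone to the 18580 features that passed filterByExpr (minimum count 10, minimum total 15) after TMM scaling. The threshold for a call was 0.05 on the unadjusted p, and Benjamini-Hochberg adjusted values are given beside it. The procedure was tested on simulated data. CPM used the counts of each mouse in the features tested, between 18767854 and 23901311, multiplied by its TMM factor. RPKM used exon lengths from GENCODE M21. For ratios, an exact permutation test, 2-sided, over mice was used. Alternatives were DESeq2 1.42.0, limma 3.58.1 voom, the exact test of edgeR, other scalings and filters, and leaving out each mouse. Coding sequences were aligned with Biopython 1.88, and plots were drawn with matplotlib 3.10.9 in Python 3.11.15.

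Named were all 9 subunits, the called genes of each related list or else the 2 with the smallest p, other nicotinic subunits with a count, the 3 most correlated genes per subunit (log2 CPM, prior count 2) and the 3 most abundant markers of each marker list printed; some genes are not reported here. The members and lists were chosen with earlier results of these data known.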

Additional observations from a re-analysis of the deposited data

How the results depend on the processing

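The count of subunits called was 0 under every change of scaling, filter and test that was run, and leaving out single mice gave 0 to 2: 2 without control mouse 5 (Chrna3 and Chrna4, beside 6.49% of all features) and 1 without PLDP mouse 26 (Chrna3, 7.24%). Subunits whose diets did not overlap went from 0 to 2 without control mouse 5 (22.6% of all features), and to 1 without PLDP mouse 17 (Chrna5, 29.5%) or PLDP mouse 26 (Chrna3, 23.1%). With 27 related genes tested, calls went from 3 (8.6% of all features called) to 1 (Slc5a7) with DESeq2 (4.98%) and without PLDP mouse 17 (12.5%), and were 1 to 4 over the mice left out.

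Direction turned only when single mice were left out, with log2 fold changes from -0.33 to 0.18 for Chrna2, -0.24 to 0.13 for Chrna6, -0.28 to 0.11 for Chrna7, -0.01 to 0.03 for Chrnb2, -0.32 to 0.16 for Chrnb3 and -0.29 to 0.14 for Chrnb4. Likewise the difference in log2 ratio ran from -0.51 to 0.09 for Chrna3 to Chrnb4, from -0.21 to 0.21 for Chrna5 to Chrna3 and from -0.38 to 0.25 for Chrna6 to Chrnb3, while that of Chrna5 to Chrna4 stayed between -0.51 and -0.26, that of Chrna7 to Chrna4 between -0.36 and 0.00 and that of Chrna4 to Chrnb2 between 0.03 and 0.13. Chrna3 stayed between -0.45 and -0.22, Chrna4 between 0.03 and 0.14 and Chrna5 between -0.42 and -0.18. The cause was not tested. RPKM by the longest coding transcript was 13.0 for Chrnb2, 9.04 for Chrna4, 3.03 for Chrna7, 0.689 for Chrna3, 0.587 for Chrna5 and 0.391 for Chrnb3, by the shorter length alone. No paired analysis was possible because the diets share no mouse number. The 6 low subunits rest on few counts, 14 to 80 per mouse, and the part of depth in their spread was not tested.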
